A study of Mus musculus with 8 samples.

Results

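The genes described here encode the zona pellucida and the proteins with which a mouse egg meets the sperm. They were chosen by symbol as Zp1, Zp2, Zp3, Astl, Izumo1r, Cd9 and Cd81, and all 7 were found among the 8898 genes of the HA table and among the 10530 genes of the input table (8537 genes are in both). RNA-Seq was performed on 8 libraries from 4 pools of 200 metaphase II (MII) oocytes, 2 pools from young (1 month) and 2 from old (12 to 15 months) RiboTagF/F;Zp3-Cre mice on a C57BL/6 background. In these mice, the Zp3 promoter drives Cre in growing oocytes, and Cre switches on an HA-tagged copy of the ribosomal protein RPL22. All females, young and old, were superovulated with 5 IU PMSG and, 48 h later, 10 IU hCG, with collection 13 h thereafter. An aliquot of 10% of a pool's lysate gave its input library (total mRNA) and the remainder gave an HA library (ribosome-bound mRNA). The old mice were retired breeders, so that age and breeding history cannot be told apart.

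The zona pellucida is the glycoprotein coat that the growing oocyte secretes around itself. ZP2 and ZP3 polymerize into filaments, ZP1 crosslinks the filaments, and sperm bind to the N-terminal region of ZP2. After fertilization, cortical granules release ovastacin, the metalloprotease encoded by Astl, which cleaves ZP2 so that further sperm no longer bind. Beneath the zona, the plasma membrane of the egg (oolemma) carries JUNO, the GPI-anchored product of Izumo1r and receptor for the sperm protein IZUMO1. The oolemma also carries the tetraspanins CD9 and CD81, membrane proteins with roles in gamete fusion. The MII oocyte is transcriptionally silent, so that its mRNAs were made during growth and are stored, translated or degraded.

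The levels are CPM, read numbers relative to library size after the authors' TMM scaling, which was set separately for HA and input. Library depth, as reads on the genes listed, was 37817382 to 59688578 in HA and 38276453 to 60052814 in input. A floor of 3 reads, the limit that a count of 0 allows, corresponded to 0.0388 to 0.111 CPM in HA and to 0.0435 to 0.0788 CPM in input, and it covers counting error only. The old HA pools were the least alike, since the median gene differed between them by 1.32 on the log2 scale, against 0.65 between the young HA pools. All 12 oocyte markers were in both tables, with Gdf9 at 3010 to 3699 CPM in input. None of 10 blood and immune markers and none of 8 sperm markers was in either table, whereas 9 of 16 cumulus and granulosa markers were in input and 3 of 16 in HA. Because levels are relative to all mRNA of a library, less of a given mRNA and more of the others cannot be told apart, nor can fewer contaminating cells and less RNA per cell.

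In the annotated transcript chosen for each gene, the 3 zona mRNAs end almost directly after their stop codons. The positions in parentheses are of whole genes, and for Zp2 and Izumo1r the gene runs on past the end of the chosen transcript. In the principal transcripts of the GENCODE M21 annotation of GRCm38, the 3′-UTR of Zp1 (chr19:10914287-10920632, minus strand) was 34 bases long, that of Zp2 (chr7:120126772-120145291, minus strand) 49 bases and that of Zp3 (chr5:135980099-135988624, plus strand) 13 bases. The median over 7954 genes in both tables was 1142.5 bases, and 1.79%, 2.16% and 1.22% of these genes had a shorter 3′-UTR than Zp1, Zp2 and Zp3, respectively. Astl (chr2:127338639-127357651, plus strand) had a 3′-UTR of 877 bases. Those of Izumo1r (chr9:14885814-14903949, minus strand), Cd9 (chr6:125460266-125494791, minus strand) and Cd81 (chr7:143052739-143067934, plus strand) were 333, 395 and 560 bases long. For Zp1, Zp2, Zp3 and Astl, 30 bases around the polyadenylation signal near the transcript end are shown, in the direction of the mRNA. The signal ends 20, 32, 12 and 18 bases before the transcript end, in this order, so that only the Zp3 stretch reaches that end. Capitals mark the polyadenylation signal AATAAA.
Zp1 (chr19:10914297-10914326, minus): ttaaatggactcAATAAAccattgtttgaa
Zp2 (chr7:120132360-120132389, minus): attggacttgcaAATAAAgagactgcagtt
Zp3 (chr5:135988595-135988624, plus): tatcccttccgcAATAAAagaagaaactca
Astl (chr2:127357616-127357645, plus): ggaaaaggtagaAATAAAgttgggtgtttg
In Zp3 the signal overlaps the stop codon TAA, which leaves 12 bases between the signal and the transcript end. Zp1 has a further signal, ATTAAA, which also overlaps its stop codon TAA and ends 33 bases before the transcript end. AATAAA or ATTAAA lay in the last 50 bases of all 7 members' transcripts, as it did in 78.5% of the 7954 genes.

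Cytoplasmic polyadenylation elements (CPEs) are 3′-UTR motifs through which the RNA-binding protein CPEB1 controls polyadenylation and translation in the oocyte. The motifs TTTTAT and TTTTAAT were searched on the mRNA strand. Neither was found in the 3′-UTRs of Zp1, Zp2, Zp3, Astl or Izumo1r. The tetraspanins had 1 each, at 267 bases from the end of the Cd9 transcript and at 156 bases from the end of the Cd81 transcript. They are shown, with the motif in capitals, as the only matches among the members.
Cd9 (chr6:125460522-125460551, minus): ttctgtttgtctTTTTAATgctttattcat
Cd81 (chr7:143067760-143067789, plus): ttgctcacatctTTTTAATctttgttcctt
In the last 150 bases of the transcript, where none of the 7 members had a match, 27.5% of the 7954 genes had at least 1. A match or its absence describes these letters only.

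The zona genes were among the most abundant mRNAs of the egg, since per kb of transcript each was above at least 96.3% of 9634 genes in every input library. In input, Zp1, whose product crosslinks the zona filaments, was at 976 and 853 CPM in the old pools and at 910 and 826 CPM in the young pools. The values for Zp2, the sperm-binding component, were 551 and 292 CPM in old and 297 and 329 CPM in young. For Zp3, the filament partner of ZP2, they were 640 and 383 CPM in old and 550.3 and 291 CPM in young. The groups overlapped for all 3, and the spread over the 4 pools was 1.18-fold for Zp1, 1.89-fold for Zp2 and 2.20-fold for Zp3. Measured in the same libraries, Astl varied between 81.7 and 150.2 CPM (106 and 81.7 CPM in old, 150.2 and 90.5 CPM in young) and Izumo1r between 99.4 and 159 CPM (159 and 155 CPM in old, 157 and 99.4 CPM in young). Cd9 and Cd81 did not pass 13.7 CPM in any input library.

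To compare levels between genes, CPM were divided by transcript length. The means over the 4 input libraries were 454 CPM per kb for Zp1, 352 for Zp3, 165 for Zp2, 110.5 for Izumo1r and 45.0 for Astl. Zp1 was above at least 99.4% of the genes in each input library. In this order, the ranges over the libraries overlapped for Zp1 and Zp3 and for Zp3 and Zp2. They did not overlap for Zp2 (132 to 248) and Izumo1r (77.0 to 123), nor for Izumo1r and Astl (34.4 to 63.2). Cd81 (0.123 to 8.92 CPM per kb) and Cd9 (1.03 to 4.80 CPM per kb) overlapped each other at the lower end. In the HA libraries, the ranges of Zp1 (142 to 203 CPM per kb), Zp3 (55.3 to 194), Zp2 (98.5 to 200.3) and Astl (58.8 to 251) all overlapped, and Izumo1r was below them at 31.4 to 47.7. Reads had been counted over whole genes, introns included, so the length of the mature transcript is an approximation.

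**Figure D1:**
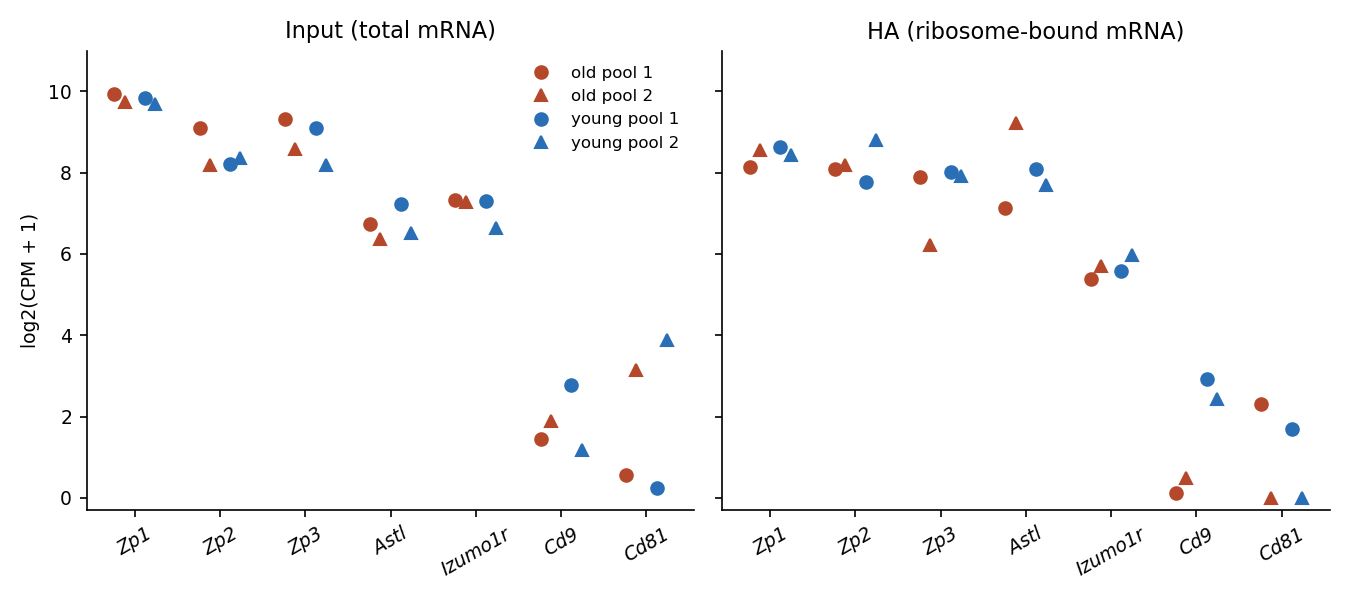
Level of each gene, as log2(CPM + 1) on the y axis, in the 4 input libraries (left) and the 4 HA libraries (right), with 1 point per library. The zona genes lay between 291 and 976 CPM in input and between 73.1 and 445 CPM in HA, Cd9 was below 0.5 CPM in both old HA libraries, and Cd81 was at 0 reads in the HA library of pool 2 of each age.

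In the HA libraries, the zona genes were ribosome-bound at both ages. Zp1 was at 279 and 374 CPM in old and 398 and 346 CPM in young oocytes. Zp2 was at 271 and 291 CPM in old and 219 and 445 CPM in young. Zp3 was at 236 and 73.1 CPM in old and at 257 and 239 CPM in young. For Zp3, old pool 2 was low while old pool 1 lay next to the young pools, and the groups did not overlap by a margin of 236 against 239 CPM. Astl was at 140 and 598 CPM in old and 274 and 207 CPM in young, so that the same pool, old pool 2, had the highest Astl and the lowest Zp3 value. Izumo1r was at 40.5 and 50.7 CPM in old and 46.6 and 61.6 CPM in young, with overlapping groups.

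The composition of the zona mRNAs can be read within a library, where scaling between libraries plays no role. As a share of the 3 genes' summed CPM per kb, Zp1 made up 40.4 to 53.4% of input, Zp3 27.9 to 41.0% and Zp2 13.2 to 20.2%. In HA, the shares were 31.6 to 50.6% for Zp1, 14.7 to 40.3% for Zp3 and 19.9 to 35.9% for Zp2. The share of Zp2 was higher in HA than in input in 4 of 4 pools, by 12.6 ± 6.56 percentage points (SD, n = 4). For Zp1 the difference was -8.76 ± 9.27 points and HA was higher in 0 of 4 pools, and for Zp3 it was -3.88 ± 10.5 points with HA higher in 2 of 4. An exact permutation test over the 4 pools (two-sided) gave p = 0.125 for Zp2 and Zp1, the smallest it can give, and 0.75 for Zp3 (adjusted p = 0.188, 0.188 and 0.75 over the 3 genes), so that none passed 0.05.

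**Figure D2:**
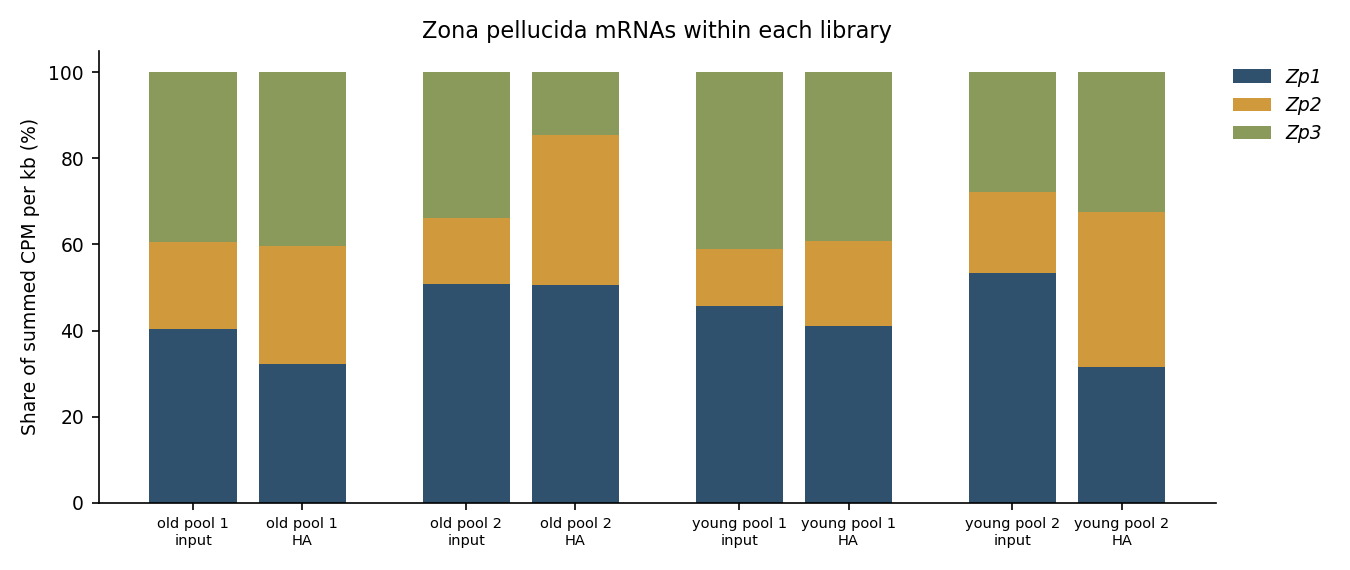
Share of each zona gene (y axis, % of the summed CPM per kb of Zp1, Zp2 and Zp3) in the input and HA library of each pool, as stacked bars. The Zp2 segment is larger in HA than in input in all 4 pools, and Zp3 has its smallest share, 14.7%, in the HA library of old pool 2.

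Translation efficiency (TE) is the HA level of a gene divided by its input level in the same pool. Since HA and input were scaled apart, the level of TE is relative, and each gene was therefore ranked within its pool among the 6530 genes in both tables with a mean input of at least 10 CPM. Astl, the cortical granule protease, stood highest among the members. Its TE was 1.32 and 7.31 in the old pools and 1.82 and 2.29 in the young pools, at the 70.1th, 96.7th, 90.7th and 93.3th percentile. The TE of Zp2 was 0.491 and 0.994 in old and 0.735 and 1.35 in young, at the 39.0th to the 79.6th percentile. Zp1 (0.286 and 0.438 in old, 0.438 and 0.419 in young) was at the 24.3th to the 42.5th percentile, Zp3 (0.368 and 0.191 in old, 0.467 and 0.823 in young) at the 26.9th to the 58.1th, and Izumo1r (0.255 and 0.327 in old, 0.296 and 0.620 in young) at the 11.8th to the 44.0th. Zp1 and Izumo1r were thus below the median gene in each of the 4 pools and Astl was above it in each. Cd9 and Cd81, with a mean input under 10 CPM, were not ranked.

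The members' TE was compared within pools over 10 pairs. Astl was above each of the other 4 genes in 4 of 4 pools. The mean log2 difference was -2.69 ± 0.93 (SD, n = 4 pools) for Zp1 minus Astl, -1.59 ± 0.91 for Zp2 minus Astl, -2.64 ± 1.76 for Zp3 minus Astl and 2.84 ± 1.14 for Astl minus Izumo1r. As folds of the mean, these are 6.47, 3.02, 6.22 and 7.16. Zp2, the substrate of ovastacin, was in turn above Zp1, Zp3 and Izumo1r in 4 of 4 pools, with log2 differences of -1.10 ± 0.44 (Zp1 minus Zp2), 1.04 ± 0.90 (Zp2 minus Zp3) and 1.25 ± 0.28 (Zp2 minus Izumo1r). Each of these 7 pairs had p = 0.125 in the exact permutation test over the pools (two-sided, adjusted p = 0.179 over 10 pairs), the smallest p that 4 pools can give, so that no pair could pass 0.05. The other 3 pairs, among Zp1, Zp3 and Izumo1r, differed in sign between pools.

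**Figure D3:**
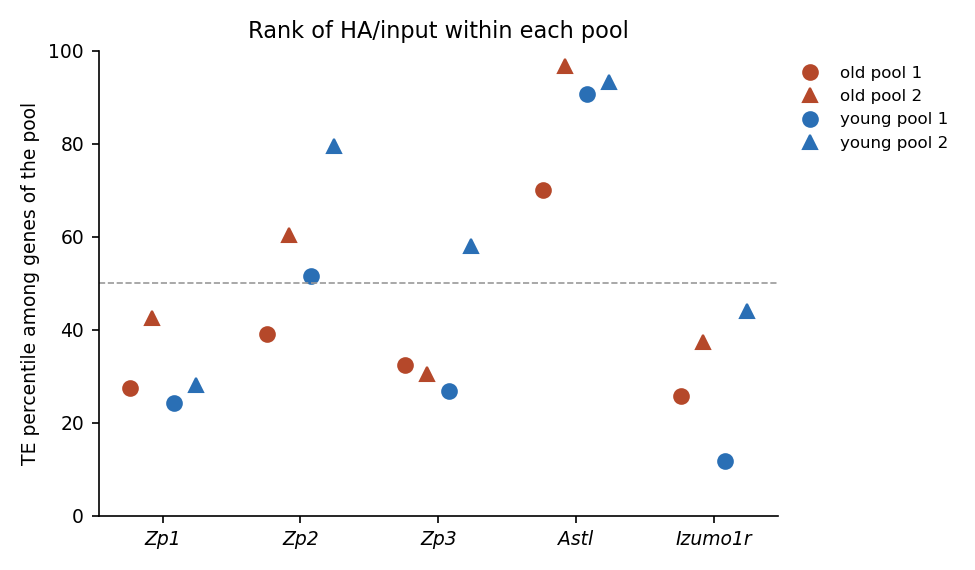
Percentile of TE (HA over input CPM, y axis) of 5 members among the 6530 genes ranked in each pool, with 1 point per pool and the dashed line at the median gene. Astl was between the 70.1th and 96.7th percentile, and Zp1 and Izumo1r were below the median gene in all 4 pools.

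To ask whether maternal age changed these mRNAs, limma was run on log2(CPM + 1) of old against young libraries, and p-values were adjusted over the whole table (Benjamini-Hochberg). In input, 0 of 7 members passed an adjusted p of 0.05 (0.0095% of 10530 genes did). None had an unadjusted p under 0.05 (6.18% of all genes), and none had groups that did not overlap (35.3% of all genes). The smallest adjusted p among them was 0.906, and on the recovered reads 0 members were called by DESeq2 and by edgeR's quasi-likelihood and likelihood ratio tests. Of all 10530 genes, these tests called 114, 0 and 50, in this order. The log2 difference, old minus young, was 0.07 for Zp1 (95% interval -0.44 to 0.58), 0.36 for Zp2 (-0.41 to 1.13) and 0.31 for Zp3 (-0.55 to 1.16). For Zp1 it turned to -0.12 when libraries were scaled to equal sums and to -0.10 after quantile normalization. It was -0.33 for Astl (-1.23 to 0.58) and 0.32 for Izumo1r (-0.48 to 1.13). Over these 5 genes, the intervals reached from -1.23 to 1.16 at most.

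In HA, 0 of 7 members passed an adjusted p of 0.05 (0% of 8898 genes did), and the count was also 0 in DESeq2 and with both edgeR tests. Of all 8898 genes, DESeq2 called 508, edgeR's likelihood ratio test 295 and its quasi-likelihood test 0. At an unadjusted p under 0.05 there was 1 of 7 (14.7% of all genes), and 2 of 7 had groups that did not overlap (41.9% of all genes), namely Zp3 and Cd9. Both shares are near or below those of the table. The log2 difference was -0.20 for Zp1 (95% interval -1.22 to 0.82), -0.15 for Zp2 (-1.36 to 1.05), -0.91 for Zp3 (-2.49 to 0.67), 0.28 for Astl (-1.44 to 2.00) and -0.24 for Izumo1r (-2.08 to 1.60), with adjusted p of 0.922, 0.954, 0.654, 0.937 and 0.953 in limma. The values for Zp3 and Astl rested on old pool 2. Without it, the difference of Zp3 was -0.07 and that of Astl -0.76, and without old pool 1 they were -1.75 and 1.32. The scaling moved these values too. With equal library sums they were -0.84 for Zp1, -0.79 for Zp2, -1.55 for Zp3, -0.36 for Astl and -0.87 for Izumo1r, and with the median ratio 0.01, 0.06, -0.70, 0.49 and -0.03. The median difference of all HA genes was -0.14, and it moved to -0.68 with the same sum and to 0.04 with the median ratio.

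For TE, 0 of 7 members passed an adjusted p of 0.05 (0% of 8537 genes did), and none had an unadjusted p under 0.05 (6.56% of all genes). In edgeR's quasi-likelihood test of the interaction, 0 members were called. Groups did not overlap for 2 of 7 (37.6% of all genes), again Zp3 and Cd9. The log2 differences were -0.27 for Zp1, -0.51 for Zp2, -1.22 for Zp3, 0.61 for Astl and -0.56 for Izumo1r. With equal library sums they were -0.72, -0.96, -1.66, 0.15 and -1.0, where the median of all genes moved from -0.10 to -0.48. Single pools decided much of these values. Without old pool 1 they were 0.03 for Zp1, -0.00 for Zp2, -1.69 for Zp3 and 1.83 for Astl, and without old pool 2 they were -0.58, -1.02, -0.75 and -0.62. Without young pool 1, Zp2 was at -0.95 and Izumo1r at -1.09, and without young pool 2 they were at -0.07 and -0.04, with Zp3 at -0.81. With intervals such as -4.03 to 1.59 for Zp3 and -2.00 to 3.21 for Astl, 2 pools per age left room for large differences in either direction. For any one gene, an exact permutation test of 2 pools against 2 cannot give a two-sided p below 0.333.

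**Figure D4:**
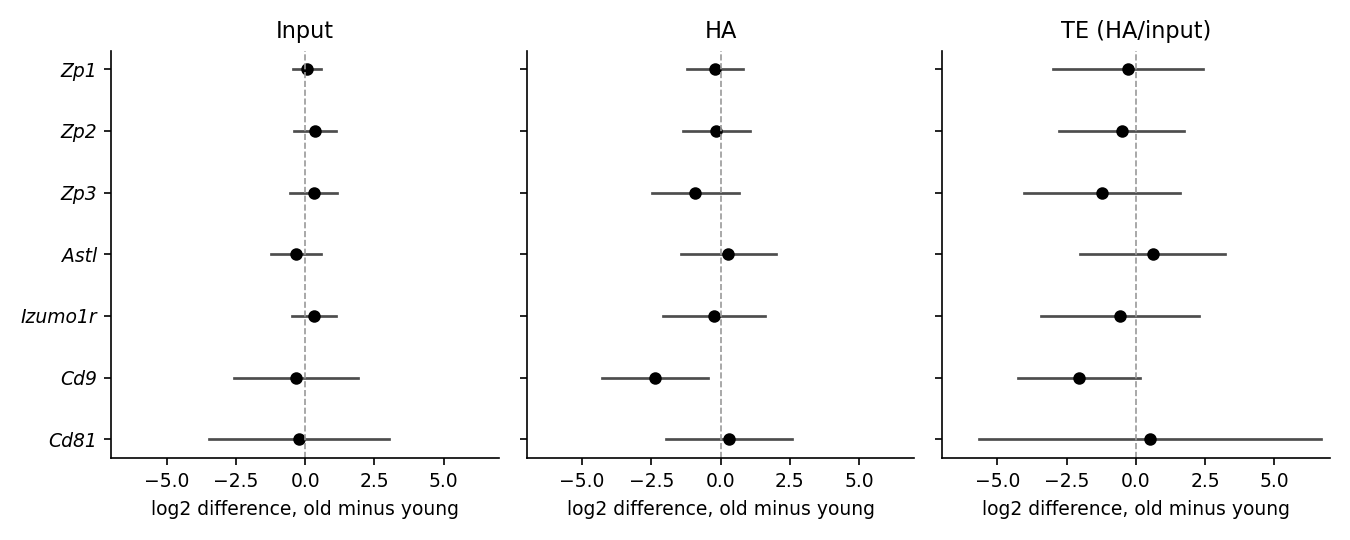
Log2 difference between old and young oocytes (x axis, limma on log2(CPM + 1), points) with its 95% interval (lines) for each gene in input, HA and TE. Intervals include 0 in every case but Cd9 in HA (-4.29 to -0.45), whose adjusted p was 0.297, and the points of Zp1, Cd9 and Cd81 in input and of Zp1, Zp2 and Astl in HA change side under other scalings.

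Among the tetraspanins, Cd9 in HA had the largest log2 difference between the ages of any member in the main limma test. Its HA values were 0.0950 and 0.407 CPM in old (4 and 11 reads) and 6.64 and 4.35 CPM in young (514 and 247 reads). Both young pools were therefore above both old pools, and the old pools were near the floor of 3 reads. The log2 difference was -2.37 (standard error 0.81, unadjusted p = 0.0228, adjusted p = 0.297 in limma, and 0.0685 to 0.847 over the alternatives that included the gene). Over these alternatives the difference itself was between -4.46 in edgeR's likelihood ratio test and -0.85 after quantile normalization, where Zp3 in HA was at -1.41. However, all genes of the table met a minimum of 1 CPM, taken before TMM scaling here and below, in at least 2 libraries. Cd9 met it in the young HA libraries only, as did 1089 of 8898 genes (12.2%). A gene admitted in this way had to differ in this direction, and the difference is given as a description. In input, Cd9 was at 1.71 and 2.69 CPM in old and 5.89 and 1.26 CPM in young, with overlapping groups and a log2 difference of -0.32 (0.07 after quantile normalization, adjusted p = 0.982 in limma). Transcripts on the opposite strand overlap Cd9 and Cd81, and the counting did not use strand, so that reads of both strands cannot be told apart.

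Cd81 did not follow age but pool number, and in opposite directions in the input and HA libraries. In input it was at 0.478 and 7.78 CPM in old and at 0.189 and 13.7 CPM in young, so that pool 2 was high at both ages. In HA it was at 3.94 and 0 CPM in old and at 2.25 and 0 CPM in young, so that the pools with the higher input had no HA reads. Pool 2 of the old and of the young group share no more than a number in the labels. The log2 difference between the ages was -0.21 in input, 0.30 in HA and 0.52 in TE (adjusted p = 0.989, 0.952 and 0.972 in limma), and in input it was 0.10 with a pseudocount of 0.1 CPM and 0.03 after quantile normalization.

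Cd81 is expressed by many somatic cell types, and markers of the cumulus cells, which surround the ovulated oocyte, were higher in the same input libraries. The summed level of the cumulus and granulosa list was 35.5 and 119 CPM in old and 83.2 and 196 CPM in young input, and 6 of the 9 markers in the table were higher in pool 2 than in pool 1 at both ages (24.7% of all input genes were). Star, a steroidogenic transport protein, was at 0.0184 and 3.49 CPM in old and 0.0726 and 12.8 CPM in young. Tnfaip6, a protein of the expanded cumulus matrix, was at 5.22 and 14.8 CPM in old and 8.00 and 29.5 CPM in young. The defining markers Amh, Foxl2 and Ptx3 were in neither table. Fshr, the FSH receptor of granulosa cells, was in contrast lower in pool 2 at both ages (3.49 and 2.87 CPM in old, 9.62 and 5.94 CPM in young), and Has2 and Kitl were lower in pool 2 at 1 age each. In HA, where the pull-down selects ribosomes of the Zp3-Cre oocytes, the list was at 83.8 and 81.7 CPM in old and 156 and 182 CPM in young. Most of it was Cyp19a1 (aromatase), whose HA level was above its input level in 4 of 4 pools (1.87-fold to 5.97-fold, on tables scaled apart). Without Cyp19a1, the list was at 3.42 and 12.0 CPM in old and 13.4 and 8.09 CPM in young HA libraries, and the groups overlapped. The part of these cells in the tetraspanin values was not tested.

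**Figure D5:**
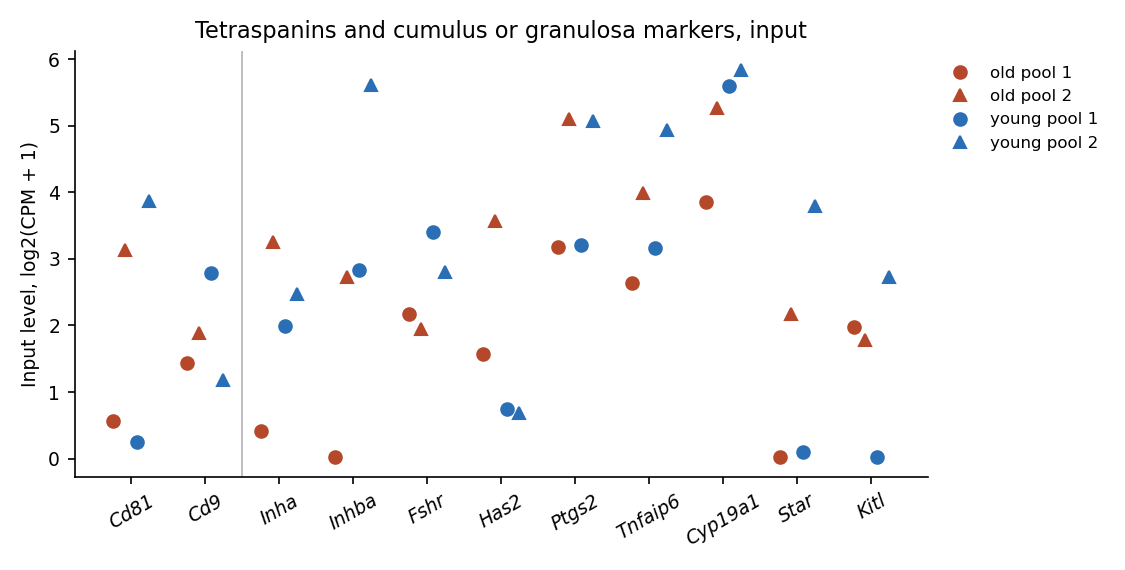
Input level, as log2(CPM + 1) on the y axis, of Cd81 and Cd9 (left of the line) and of the 9 cumulus or granulosa markers in the input table (right), with 1 point per library. Cd81 and 6 of the 9 markers were higher in pool 2 (triangles) than in pool 1 (circles) at both ages.

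Genes that act with the members were read from lists. Of 15 genes for zona transcription, cleavage and glycosylation, 9 were in HA and 0 passed the adjusted threshold in limma. Ggta1, a galactosyltransferase, had HA values of 587 and 351 CPM in old and 126 and 54.3 CPM in young. Its log2 difference was 2.44 (standard error 0.61, unadjusted p = 0.00547, adjusted p = 0.297). In input its values were 101 and 115 CPM in old and 127 and 178 CPM in young, a log2 difference of -0.47. In input, 10 genes of the list were measured and Pcsk6, a proprotein convertase, had 2 and 14 reads in old and 453 and 68 reads in young (adjusted p = 0.778 in limma). Pcsk6 reached 1 CPM in the young input libraries only, so that its direction was set by that minimum. Unadjusted p-values under 0.05 were found for 1 of 9 genes in HA (14.7% of all genes) and 1 of 10 in input (6.18%). The median log2 difference of the list was 0.17 in HA, against -0.14 for all genes, and -0.24 in input, against -0.03.

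Of 16 tetraspanin partners, integrins and other oolemma proteins, 9 were in HA and 11 in input, and 0 in either had an unadjusted p under 0.05 in limma (14.7% of all HA and 6.18% of all input genes had). Itgb3, an integrin subunit, came closest, with 51.3 and 144 CPM in old and 37.6 and 34.5 CPM in young input (log2 difference 1.23, unadjusted p = 0.0582, adjusted p = 0.778). Its HA values were 32.9 and 0.222 CPM in old and 34.3 and 19.1 CPM in young. Old pool 2 therefore had the highest input and the lowest HA level of Itgb3.

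JUNO needs a glycosylphosphatidylinositol (GPI) anchor, whose synthesis involves the Pig and Pgap genes. Of 23 such genes, 15 were in HA, 0 passed the adjusted threshold and 7 had an unadjusted p under 0.05 in limma, all lower in old oocytes (10.5% of all HA genes were lower at that p). Each of these 7 reached 1 CPM in the young HA libraries only, so that the count is a description and no support for a difference. Pigo, an ethanolamine phosphate transferase, had 0 and 2 reads in old and 322 and 376 reads in young HA libraries. Pign, from the same enzyme group, had 0 reads in both old and 411 and 117 reads in young HA libraries. Pigx, a mannosyltransferase subunit, had 5 and 2 reads in old and 360 and 858 in young HA libraries, but 702 and 3131 reads in old and 544 and 15 reads in young input. The adjusted p of these 3 genes in HA was 0.297 each in limma. The median log2 difference of the list was -1.48 in HA, against -0.14 for all genes, and these 7 genes enter it too, so that it is no support either. In input it was -0.37, against -0.03 for all genes, and 1 of 17 genes (Pigx, 3.08) had an unadjusted p under 0.05 (6.18% of all genes).

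The release of cortical granules, which carry ovastacin, was read from 26 genes of the exocytosis machinery and granule content, of which 16 were in HA and 20 in input. None passed the adjusted threshold in limma. Vamp1, a vesicle SNARE, had 6 and 6 HA reads in old against 643 and 1130 in young pools (log2 difference -3.56, adjusted p = 0.297), and it too reached 1 CPM only through the young pools. In input, Vamp1 averaged 24.9 ± 2.37 CPM over the old and 12.0 ± 2.40 CPM over the young pools (SD, n = 2 each). Rab27a, a GTPase of secretory granules, was at 118 ± 30.7 CPM in old and 53.8 ± 7.42 CPM in young input (log2 difference 1.10, unadjusted p = 0.0255, adjusted p = 0.778). Stx4a, a plasma membrane SNARE, was at 1.75 ± 1.02 CPM in old and 16.6 ± 8.91 CPM in young input (log2 difference -2.64, adjusted p = 0.778). Unadjusted p-values under 0.05 were found for 1 of 16 genes in HA (14.7% of all genes) and 2 of 20 in input (6.18%). The median log2 difference of the list was 0.21 in HA and -0.13 in input, against -0.14 and -0.03 for all genes.

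For each member, the gene with the most similar pattern of log2(CPM + 1) over the 8 libraries was searched among 5305 genes at most, each with a mean of at least 10 CPM in both tables. These were Esrp1 for Zp1 (Pearson's r = 0.99), Yeats4 for Zp2 (0.94), Tinf2 for Zp3 (0.99), Map2k1 for Astl (0.98), Gm13084 for Izumo1r (0.97), Aplp2 for Cd9 (0.92) and Dpy19l4 for Cd81 (0.93). The points share pools and library kinds, and the best of so many genes is high by selection, so that r is a description. Tinf2 showed the same low value as Zp3 in the HA library of old pool 2, at 0.924 CPM against 11.3 CPM in old pool 1. Map2k1 showed the same high value as Astl there, at 674 CPM against 254 CPM.

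The promoter of Zp3 is of interest because a Zp3 promoter drove the Cre that marked the ribosomes in these oocytes. E-boxes (CANNTG, which reads the same on both strands) are bound by basic helix-loop-helix factors such as FIGLA, which controls the zona genes in growing oocytes. In the window from 250 bases before to 50 bases after the start in RefSeq (GRCm38.p6, chr5:135979855-135980154, plus strand), Zp3 had 4 E-boxes, of which 3 began 181, 134 and 55 bases before the start and 1 lay after it. At least 4 were found in 6.49% of 32851 promoters of that length. The sequence is shown with the E-boxes in capitals.
Zp3 promoter: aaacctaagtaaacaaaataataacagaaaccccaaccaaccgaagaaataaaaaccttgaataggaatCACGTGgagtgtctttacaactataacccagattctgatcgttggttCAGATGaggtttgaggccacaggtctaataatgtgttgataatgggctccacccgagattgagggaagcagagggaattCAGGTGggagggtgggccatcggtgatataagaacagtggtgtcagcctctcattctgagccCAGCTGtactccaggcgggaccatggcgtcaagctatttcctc
Whether these matches are bound was not tested. Figla itself was in neither table.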

How the data were processed

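The authors trimmed the reads (Trimmomatic 0.36), aligned them to GRCm38 with HISAT2, and counted them with HTSeq over whole genes, without strand. The deposited signal values are CPM after TMM scaling in edgeR, HA and input apart. A minimum of 10 CPM in at least 2 libraries was stated, whereas the tables hold genes from 1 CPM, taken before TMM scaling, in at least 2. Each value was within 0.01 of a whole number of reads (100% of values per library), and these reads were recovered. On them, edgeR's likelihood ratio test called 295 genes in HA and 50 in input.

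The members, gene lists and tests were chosen with earlier results of these data known. The main test was limma (lmFit, eBayes with trend) on log2(CPM + 1), two-sided, at a threshold of 0.05 after Benjamini-Hochberg adjustment over the whole table. It was run on simulated data with large changes only, which does not bear on smaller differences. TE was compared per pool, HA with the input of the same lysate. p-values rest on the spread between pools. In limma and the count tests that spread is estimated partly from the other genes, whereas the permutation tests use the members' own values. Named are the 7 members, up to 3 genes per pathway list by smallest p (unadjusted p under 0.05 in HA or input, otherwise the smallest), and the gene most correlated with each member. Markers and counts of 5 or fewer were named after their values were seen. Transcripts were taken from GENCODE M21 (principal isoform, then CCDS, then length), which covered 93.2% of genes in both tables. RefSeq promoters matched 5 of the 7 members, and 3′-UTR windows came from GENCODE transcripts. Alternatives were other pseudocounts, filters, scalings and count tests, a replicate block, and leaving out each pool. Tools were Python 3.11.15 with scipy 1.17.1, pandas 2.3.3 and numpy 2.4.6, and R 4.3.3 with DESeq2 1.42.0, edgeR 4.0.16 and limma 3.58.1.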

Additional observations from a re-analysis of the deposited data

How the results depend on the processing

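The number of members called was 0 in HA, input and TE under each of the 43 alternatives run, with adjusted p from 0.0685 to 1 in HA, 0.513 to 1 in input and 0.262 to 1 in TE. Over all genes, where all pools were kept, DESeq2 called 508 in HA and 114 in input, and edgeR's likelihood ratio test 295 and 50. The other alternatives with all pools called 0 HA genes (9 with the replicate block), 0 or 1 input genes and 0 TE genes. Of 295 recomputed log2 differences, 267 kept their direction and 28 changed it, and the causes were not tested. In HA, Zp1 was 0.01 with the median ratio and 0.04 in DESeq2, Zp2 was 0.06 with the median ratio, and Astl was -0.36 with the same sum and -0.37 after quantile normalization. In input, Zp1 was -0.12 and -0.10 under the same 2 scalings, Cd9 was 0.07 and Cd81 0.03 after quantile normalization, and Cd81 was 0.10 with a pseudocount of 0.1 CPM. Leaving out each pool in turn, where a lone pool is assumed to vary like the other age, gave in HA -0.41 to 0.01 for Zp1, -0.66 to 0.36 for Zp2, -0.76 to 1.32 for Astl and -0.85 to 1.46 for Cd81. In input it gave -0.02 to 0.17 for Zp1, -0.10 to 0.82 for Zp2, -0.15 to 0.77 for Zp3, -0.69 to 0.04 for Astl, -0.00 to 0.65 for Izumo1r, -1.12 to 0.48 for Cd9 and -2.03 to 1.60 for Cd81. In TE it gave -0.58 to 0.03 for Zp1, -0.62 to 1.83 for Astl and -2.15 to 3.18 for Cd81. With the stricter filter of 10 CPM in 2 libraries, Cd9 and Cd81 dropped out and 5 members remained.

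With the replicate number as a block, 0 members were called in HA, input and TE, and 9 of all HA genes were called against 0 without the block. Same-numbered old and young pools deviated together with a correlation of 0.08 in HA and 0.03 in input across genes. A correlation over all genes cannot tell whether same-numbered pools share something that acts on a part of the genes. The labels give them no more than a shared number.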

Other observations

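In the same RefSeq promoter window, Cd9 had 3 E-boxes, a number that 17.6% of promoters reach, and Izumo1r and Cd81 had 1 each, which 72.3% of promoters reach. Astl had 2 annotated starts, 1 of which had 3 E-boxes and the other 0. The promoters of Zp1 and Zp2 were not analysed here.

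Astl had the widest spread over the 4 HA libraries among the zona and receptor genes, 4.28-fold. It was followed by Zp3 at 3.51-fold, Zp2 at 2.03-fold, Izumo1r at 1.52-fold and Zp1 at 1.43-fold. In input, the spread of Astl was 1.84-fold. Of the 7 oviduct markers, Cdh1 and Epcam were in input and only Cdh1 was in HA. Cdh1 was at 334 and 362 CPM in old and 462 and 433 CPM in young input, and at 478 to 705 CPM in HA. Epcam was at 57.6 and 0.963 CPM in old and 0.0581 and 3.29 CPM in young input. The markers Ovgp1, Krt8, Krt18, Foxj1 and Pax8 were in neither table.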
